A study of Mus musculus with 8 samples.

Results

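The genes described are those that the 2 ends of a path from embryonic stem cells to cardiomyocytes had in common. They were found by setting the mean of the first and last stages, undifferentiated embryonic stem cells (ESC) and cardiomyocytes (CM), against the mean of the stages in between, mesoderm (MES) and cardiac progenitors (CP). All 55487 genes of the count file entered, and 20071 of them had enough reads to be tested. Of these, 277 genes were high in ESC, lost in MES and CP and regained in CM, and 159 showed the reverse, a gain in MES and CP followed by a loss. Members of both kinds were chosen by the comparison itself, so their levels in the 4 stages are given as a description.

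J1 ESCs, a male mouse line of strain 129S4/SvJae, were differentiated in embryoid bodies, cell aggregates in which several tissues form at once. RNA without ribosomal RNA was sequenced for ESC on day 0, MES on day 4, CP on day 6 and CM on day 10, with 2 biological replicates per stage and 8 libraries in all. No library carried a mutation or a transgene. ESC grew on gelatin with KnockOut Serum Replacement and leukemia inhibitory factor (LIF). Embryoid bodies were started in hanging drops with fetal bovine serum and were later plated in serum medium with ascorbic acid, where contracting patches were collected. ESC thus differed from the 3 later stages in medium as well as in stage, and these cannot be told apart.

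Library totals lay between 18046063 and 19728777 counts. Markers of the stages fitted their labels in part. Nanog had 267 and 269 TPM at ESC, 31.5 and 37.2 at the MES stage, 3.03 and 2.41 at CP, then 2.89 and 1.503 at CM, and this pluripotency factor was high in ESC alone. T was measured at 0.777 and 0.402 TPM in ESC, at 116 and 102 in MES, at 12.3 and 3.64 in CP and at 0.262 and 2.23 in CM, and this factor of the primitive streak, also known as brachyury, was highest in both MES libraries. In ESC Nkx2-5 stood at 0 and 0.216 TPM, in MES at 3.78 and 3.52, in CP at 8.39 and 10.4, and in CM at 2.24 and 14.8, so this cardiac transcription factor differed widely between the CM replicates. The libraries of Tnnt2 gave 0.0464 and 0.04797 TPM for ESC, 1.54 and 3.01 for MES, 30.3 and 38.98 for CP, and 26.2 and 45.95 for CM, and this cardiac troponin was as high in CP as in CM. The CM replicates were the least alike, with a mean chi-square per gene between replicates of 33.2, against 3.71 between ESC, 6.404 between MES and 6.37 between CP libraries. In bulk samples of this kind, fewer cells of a type and less RNA per cell cannot be told apart.

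Differentiating ESCs leave pluripotency, pass through a primitive-streak-like mesoderm in response to Wnt, Nodal and BMP signals, and form blood, vessel, heart and other lineages side by side in the same aggregate. Pluripotent cells share some genes with mature tissues, such as enzymes of fuel use, epithelial junction proteins and sensors of foreign RNA, and the tissues that form by day 10 bring programs of their own. A gene that is present at both ends can therefore come from quite different cells at each end.

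Calls required an adjusted p under 0.05 together with a fold above 2 or under 0.5, by edgeR's quasi-likelihood test with Benjamini-Hochberg adjustment. In the averaged comparison 2068 genes (10.3%) were called higher in ESC and CM and 2146 (10.7%) were called lower, and the median log2 difference of all genes tested was -0.01. Most of these calls rested on a single end. Of the genes called higher, 1175 (56.8%) had ESC alone called above both MES and CP, 367 (17.8%) had CM alone, and 277 (13.4%) had both ends. Of the genes called lower, 1772 (82.6%) had ESC alone called below both middle stages, 60 (2.80%) had CM alone, and 159 (7.41%) had both ends. When the 4 libraries of the ends were instead treated as plain replicates of each other, 68 genes were called higher and 28 lower.

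The genes lost and regained were therefore defined as those called higher in each of 4 comparisons, ESC against MES, ESC against CP, CM against MES and CM against CP, and the reverse for genes gained and lost again. The weakest step of a gene is the smallest of these 4 log2 differences. The 277 regained genes were 1.38% of all genes tested and the 159 transient genes were 0.792%. These shares, and the 10.3% called higher and 10.7% called lower in the averaged comparison, are those to set beside the list counts of the same calls below. Some lists also have counts of members with 1 end above or below both middle stages. The share of all genes for such a pair of steps was not computed, and it cannot exceed that of either step. For ESC, 3211 of the 20071 genes were called above MES and 3890 below it. For CM, 8.17% were called above CP and 2.65% below it. The threshold left close neighbours on both sides. Abcb1b was just inside, with a weakest step of 1.010, and Adgrb2 was just outside, at 0.996. Among transient genes, Arhgef26 (-1.002) and Rspo3 (-1.004) were inside, and Nfatc1 and Rbm24 (-0.994 each) were outside. Over the 277 genes the averaged log2 difference was at least 1.21, with an adjusted p of at most 0.00366, and over the 159 genes it was at most -1.13, with an adjusted p of at most 0.00656. In all 277 and all 159 genes the 4 end libraries also lay apart from the 4 middle libraries in scaled counts. Such a gap and a small adjusted p thus come with membership and are given below as a description. Without CP replicate 1 the class of regained genes held 174 genes, and without CP replicate 2 it held 183.

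**Figure D1:**
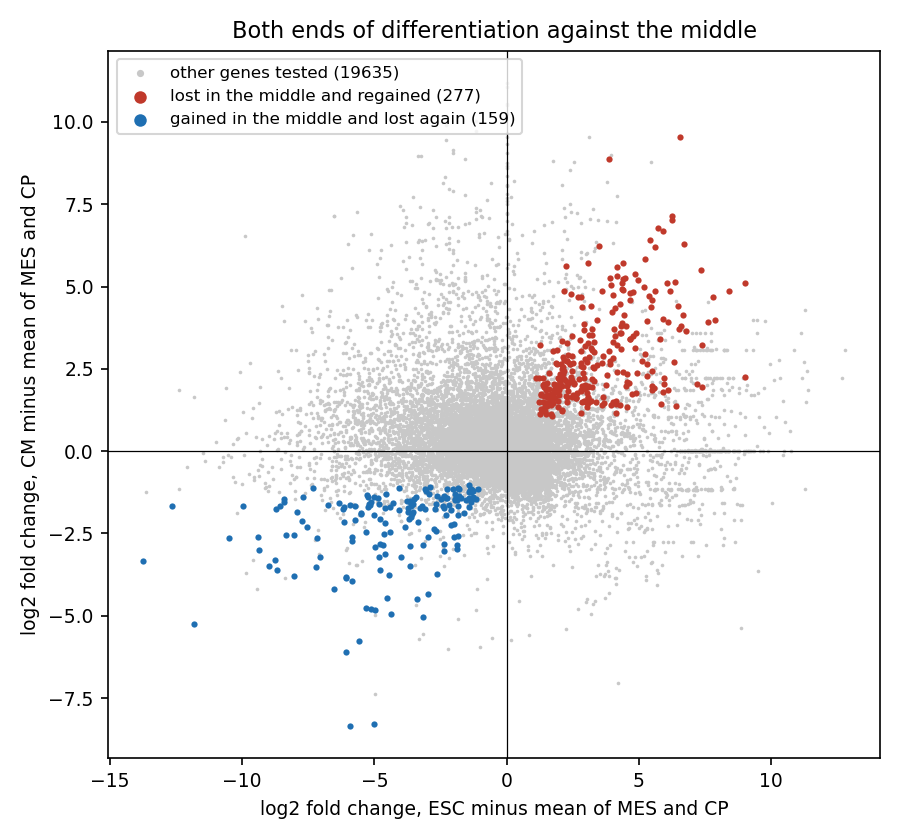
Each point is a gene tested, with the log2 fold change of ESC over the mean of MES and CP on the x axis and that of CM over the same mean on the y axis. The 277 regained genes lie at the upper right and the 159 transient genes at the lower left, since the rule places them there, and both axes share the MES and CP libraries.

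A pair of steps with no library in common gave a further description. Of the 3211 genes called higher in ESC than in MES, 483 (15.0%) were called higher in CM than in CP, a step that 8.17% of all genes tested passed. A further 67 of the 3211 (2.09%) were called lower in CM than in CP, against 2.65% of all genes. Of the 3890 genes called lower in ESC than in MES, 292 (7.51%) were called lower in CM than in CP and 308 (7.92%) were called higher.

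Regained genes were mostly protein-coding. They included 258 mRNAs (1.69% of the mRNAs tested), 10 lncRNAs (0.57%) and 9 genes of other kinds (0.296%). Their median TPM, a read abundance scaled for gene length and library size, was 5.99 at ESC, 0.556 at the MES stage, 0.989 at CP and 5.68 at CM, so most were genes of low to moderate level, and 54 of them averaged over 20 TPM in ESC and CM. A majority returned to a level near that of ESC. By mean TPM, 164 of the 277 were within 2-fold of ESC in CM, 63 stayed under 0.5 of it and 50 exceeded 2 times it. In the fitted model, 22 (7.94%) were called higher and 85 (30.7%) lower in CM than in ESC, against 29.8% and 21.8% of all genes tested, with a median log2 difference of -0.28. The median ratio of TPM went the other way, with CM at 112% of ESC. TPM is not scaled by TMM, whose factors were 0.924 to 0.925 in ESC and 1.03 to 1.13 in CM. Within the middle, 53 of the 277 were called higher in CP than in MES and 4 (1.44%) lower, against 10.8% and 4.65% of all genes tested.

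**Figure D2:**
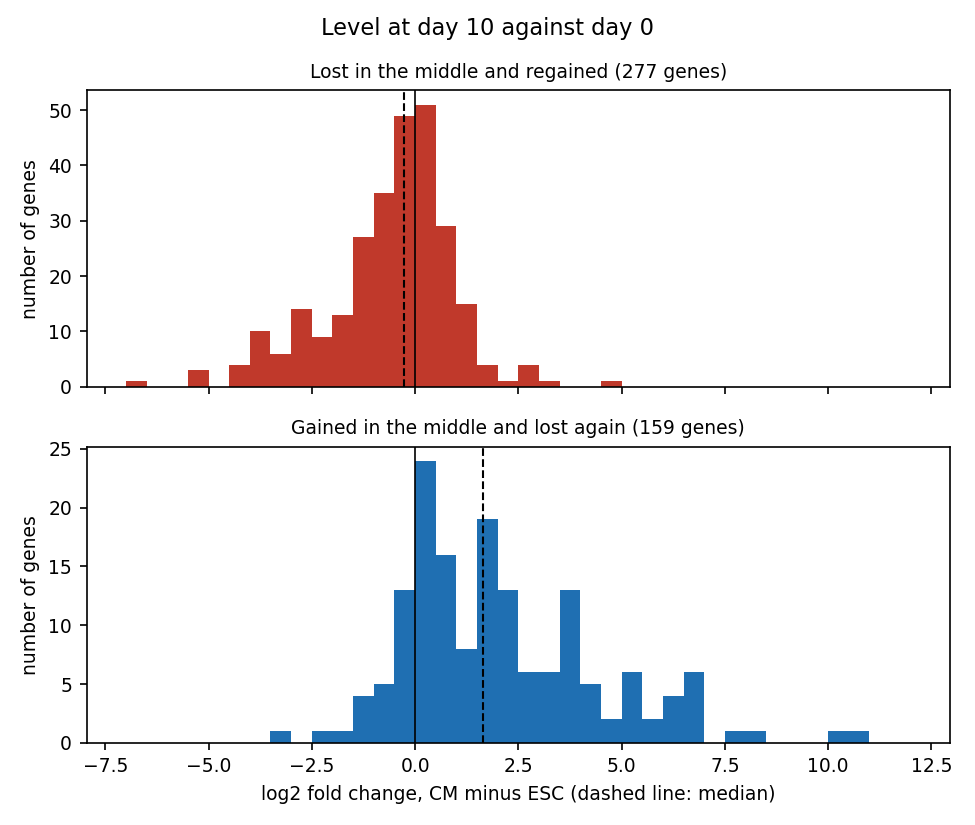
Histograms of the log2 fold change of CM over ESC for the 277 regained genes (top) and the 159 transient genes (bottom), with the median as a dashed line. The median is -0.28 for regained genes and 1.64 for transient genes, which lie mostly to the right of 0.

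Spp1, at chr5:104435118-104441050 of GRCm38, encodes the secreted matrix protein osteopontin and was one of the most abundant regained genes. Spp1 had 326 and 346 TPM at ESC, 3.56 and 3.41 at the MES stage, 10.04 and 11.6 at CP, then 233 and 235 at CM. Every ESC and CM library was far above every MES and CP library. Spp1 differed by 5.58 ± 0.09 (SE) on the log2 scale between ends and middle (adjusted p = 2.56e-09). The short gene Gm42793 lies within Spp1, so it is not a separate case.

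Genes that handle fatty acids and the choice of fuel were among those regained and are described as a group. Cpt1a encodes the mitochondrial carnitine palmitoyltransferase that admits long-chain fatty acids into mitochondria. Cpt1a was measured at 61.7 and 63.4 TPM in ESC, at 0.466 and 0.354 in MES, at 2.25 and 3.03 in CP and at 31.2 and 36.8 in CM. The loss in MES was almost complete, and CM regained part of the ESC level. For Cpt1a the log2 difference of ends over middle was 5.53 ± 0.11 (SE, adjusted p = 7.07e-09), and CM remained below ESC (log2 difference -1.32).

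Fabp3, the fatty acid binding protein of heart, fell less far. In ESC Fabp3 stood at 312 and 317 TPM, in MES at 58.8 and 44.05, in CP at 71.95 and 45.99, and in CM at 205 and 229. Its 4 end libraries lay well above its 4 middle libraries. Fabp3 had a log2 difference of ends over middle of 2.31 ± 0.15 (SE, adjusted p = 2.13e-06). Txnip, an inhibitor of thioredoxin and of glucose uptake, was the most abundant of the group. The libraries of Txnip gave 366 and 366 TPM for ESC, 47.4 and 67.9 for MES, 142 and 163 for CP, and 562 and 340.3 for CM. ESC and CM did not overlap MES and CP, although the CM replicates differed. Txnip differed by 2.201 ± 0.18 (SE) on the log2 scale between ends and middle (adjusted p = 9.29e-06).

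Pdk4, which restrains pyruvate oxidation, and Angptl4, a secreted inhibitor of lipoprotein lipase, had smaller levels with the same shape. Pdk4 had 7.74 and 9.11 TPM at ESC, 2.33 and 2.02 at the MES stage, 2.901 and 2.895 at CP, then 11.9 and 11.96 at CM. Angptl4 was measured at 16.4 and 15.1 TPM in ESC, at 2.96 and 2.77 in MES, at 2.88 and 2.32 in CP and at 10.9 and 11.2 in CM. In both genes MES and CP were alike and below every end library. Acot1, a cytosolic acyl-CoA thioesterase, also passed, but it left the class without CP replicate 2 (largest adjusted p of its 4 steps 0.0591 by edgeR) and without CM replicate 1 (weakest step 0.87).

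Of 21 fuel genes known to respond to the nuclear receptors of the PPAR family, a list drawn up after their values were seen, 16 were tested. Among these, 9 were called higher in ESC and CM and 6 were regained, and their median log2 difference was 1.32 against -0.01 for all genes. These values follow in part from the choice of the list and do not show an enrichment. In the wider list of fatty acid oxidation, 4 of 20 were called higher, 1 was called lower and 2 were regained, with a median of 0.59. Of 28 nuclear-encoded respiratory chain subunits edgeR called 0, with 15 higher and 1 lower at an unadjusted p under 0.05, and DESeq2 called 0 as well. Their median was 0.24, and differences between these lists were not tested. Among 11 genes of the mitochondrial genome edgeR called 0, with 4 higher at an unadjusted p under 0.05, and DESeq2 also called 0. Counts at an unadjusted p, here and below, are a description, since many genes pass that limit. Even at an adjusted p under 0.05 by edgeR, with no fold threshold, 4414 of all 20071 genes were higher and 5279 lower.

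The promoter of Cpt1a, from 250 bases before to 50 bases after the annotated start, is shown because it carries 3 GC boxes. It covers chr19:3323051-3323350 on the plus strand of GRCm38.p6 in RefSeq, and capitals mark GGGCGG or its reverse complement, searched on both strands.
Cpt1a: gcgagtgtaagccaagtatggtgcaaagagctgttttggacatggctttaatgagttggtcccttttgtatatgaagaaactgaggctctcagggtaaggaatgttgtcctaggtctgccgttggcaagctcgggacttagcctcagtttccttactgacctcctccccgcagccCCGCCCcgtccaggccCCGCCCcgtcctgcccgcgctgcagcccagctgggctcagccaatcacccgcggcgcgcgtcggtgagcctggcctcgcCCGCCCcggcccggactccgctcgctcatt
GGGCGG occurred in 53.5% of the 200 regained genes that had a promoter in the RefSeq table, against 61.0% of all tested genes with a promoter and 35.9% of the 27025 promoters in the table. The box was thus no more frequent among regained genes than among tested genes.

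Transcription factors of pluripotency were the next group, and here the return was small. Klf4, a Kruppel-like factor of ESCs and of epithelia, is an example. In ESC Klf4 stood at 197 and 194 TPM, in MES at 9.07 and 11.1, in CP at 17.6 and 19.01, and in CM at 33.8 and 48.6. Both CM libraries lay above all 4 middle libraries and far below ESC. For Klf4 the log2 difference of ends over middle was 2.79 ± 0.10 (SE, adjusted p = 5.86e-08), and the log2 difference of CM over ESC was -2.698. Without CM replicate 2 Klf4 left the class, with a weakest step of 0.9.

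Tfcp2l1 and Nr5a2 also sustain naive pluripotency. The libraries of Tfcp2l1 gave 93.4 and 102 TPM for ESC, 2.89 and 2.605 for MES, 5.35 and 11.3 for CP, and 23.5 and 20.7 for CM. Nr5a2 had 45.6 and 44.98 TPM at ESC, 0.533 and 0.742 at the MES stage, 2.12 and 2.16 at CP, then 4.29 and 5.67 at CM. In both genes CM was above MES and CP in each library and well below ESC. Tfcp2l1 had a log2 difference of ends over middle of 3.35 ± 0.20 (SE, adjusted p = 1.20e-06). Nr5a2 differed by 3.74 ± 0.12 (SE) on the log2 scale between ends and middle (adjusted p = 3.74e-08). Without CP replicate 1 the weakest step of Tfcp2l1 was 0.93, short of the threshold. Tfap2c, a factor of germ cells and trophoblast, returned in full. Tfap2c was measured at 44.5 and 45.4 TPM in ESC, at 14.2 and 13.03 in MES, at 8.71 and 6.17 in CP and at 66.3 and 39.1 in CM. CM straddled ESC, and all middle libraries were lower. For Tfap2c the log2 difference of ends over middle was 2.35 ± 0.20 (SE, adjusted p = 1.29e-05).

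The list of pluripotency genes held few members of the class. Of the 25 genes on the list, 18 were called higher at the ends, 22 had ESC above both middle stages, 2 had CM above both, and only Klf4 and Tfcp2l1 were in the class (1 to 3 genes over the alternatives run). The list median was 2.52 (2.37 with genes at 0 set to their bound). Tet2, given further on, was on the list too and was called higher in CM than in MES but not than in CP. In ESC Esrrb stood at 246 and 245 TPM, in MES at 0.866 and 1.38, in CP at 0.667 and 0.751, and in CM at 1.74 and 1.003. This nuclear receptor stayed low at all later stages. The libraries of Klf2 gave 229 and 223 TPM for ESC, 6.13 and 6.88 for MES, 11.5 and 11.1 for CP, and 15.4 and 10.6 for CM. Klf2 was likewise high in ESC only.

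The promoter of Klf4 is shown because it holds 4 GC boxes and an E-box within 300 bases. It covers chr4:55532426-55532725 on the minus strand of GRCm38.p6 (RefSeq), and capitals mark GGGCGG and CACGTG, searched on both strands.
Klf4: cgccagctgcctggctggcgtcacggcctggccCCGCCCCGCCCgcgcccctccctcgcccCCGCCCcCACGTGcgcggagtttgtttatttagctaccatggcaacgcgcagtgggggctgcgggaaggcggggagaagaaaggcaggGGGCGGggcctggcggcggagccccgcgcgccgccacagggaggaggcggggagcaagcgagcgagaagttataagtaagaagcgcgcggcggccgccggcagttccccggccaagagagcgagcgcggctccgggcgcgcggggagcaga
CACGTG was found in 6.5% of regained, 9.18% of transient and 9.74% of all tested genes with a promoter, and in 7.24% of all promoters.

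Outside pluripotency, the class held further transcription factors. Wt1, a zinc finger factor of the epicardium and mesothelium, was one. Wt1 had 23.2 and 24.2 TPM at ESC, 1.35 and 1.34 at the MES stage, 6.89 and 9.64 at CP, then 34.2 and 19.04 at CM. MES was lowest, CP was intermediate and CM was back at the level of ESC. Wt1 had a log2 difference of ends over middle of 2.99 ± 0.23 (SE, adjusted p = 5.53e-06). The list of 13 mesothelium and epicardium genes, drawn up after values were seen, had 2 called higher and 6 called lower. Its median was -2.11, but -0.38 with the 2 genes at 0 in a stage set to their bound, so the size of this median rests on those genes. Wt1 and Msln were regained and Podxl was transient. Msln left the class without ESC replicate 2, MES replicate 1, MES replicate 2 or CP replicate 2. Wt1os, an antisense lncRNA that starts 19 bases from Wt1, moved with it, at 2.06 and 2.36 TPM in ESC and 1.31 and 1.13 in CM, but it left the class without CP replicate 1, without CP replicate 2 (largest adjusted p by edgeR 0.0679 and 0.109) and with DESeq2 (0.062). Gcm1 was measured at 2.697 and 3.69 TPM in ESC, at 0.405 and 0.605 in MES, at 0.4105 and 0.523 in CP and at 4.79 and 5.21 in CM. Gcm1 drives the syncytial trophoblast in the placenta. In ESC Bcl11a stood at 3.78 and 3.599 TPM, in MES at 0.795 and 1.19, in CP at 0.725 and 0.772, and in CM at 4.65 and 7.52. Bcl11a, known in human as a repressor of fetal globin, was higher in every end library than in any middle library. The libraries of Hic1 gave 1.25 and 1.09 TPM for ESC, 0.335 and 0.222 for MES, 0.113 and 0.577 for CP, and 9.66 and 10.9 for CM. Hic1, a transcriptional repressor, was the case in which CM most exceeded ESC among these factors, with a log2 difference of 2.69. Wt1, Gcm1, Bcl11a and Hic1 kept their class in all 15 alternatives run. Other factors of the class were less firm, and Osr2 kept it in 10 of the 15, Rfx4 in 6 and Myt1l in 4.

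Immediate early genes respond within minutes to serum, growth factors or handling. Egr1, a zinc finger factor of this kind, was lower in all 4 middle libraries. Egr1 had 55.2 and 58.4 TPM at ESC, 7.71 and 9.34 at the MES stage, 8.803 and 10.6 at CP, then 41.7 and 53.9 at CM. The ends and the middle did not overlap, as in every member of the class. Egr1 differed by 2.58 ± 0.09 (SE) on the log2 scale between ends and middle (adjusted p = 7.11e-08). Fos was measured at 73.5 and 81.2 TPM in ESC, at 11.2 and 12.8 in MES, at 14.5 and 15.8 in CP and at 39.5 and 26.7 in CM. Fos, a subunit of AP-1, came back to a lower level in CM than in ESC. For Fos the log2 difference of ends over middle was 1.98 ± 0.15 (SE, adjusted p = 6.50e-06), but Fos left the class without CP replicate 1 (largest adjusted p by edgeR 0.0599) and without CM replicate 1 (weakest step 0.66). Of 20 immediate early and stress genes, 7 were called higher at the ends, 1 was called lower and 2 were regained, with a median of 0.64. In ESC Jund stood at 199 and 208 TPM, in MES at 71.3 and 71.3, in CP at 105 and 94.3, and in CM at 183 and 206. Jund, another AP-1 subunit, was called in the averaged comparison and was not in the class. TGANTCA, the AP-1 motif, occurred in 6.0% of regained promoters, 2.04% of transient promoters, 5.3% of tested promoters and 7.93% of all promoters.

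Some sensors of double-stranded RNA and their effectors were also among the regained genes. Ddx58 encodes the RNA helicase RIG-I. The libraries of Ddx58 gave 18.7 and 17.5 TPM for ESC, 3.75 and 5.32 for MES, 10.6 and 12.4 for CP, and 48.03 and 33.1 for CM. MES was lowest, CP was intermediate and CM exceeded ESC. Ddx58 had a log2 difference of ends over middle of 1.99 ± 0.16 (SE, adjusted p = 9.25e-06). Its weakest step was close to the threshold and fell to 0.88 with library totals only, to 0.95 without ESC replicate 1 and to 0.94 without CP replicate 1.

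Slfn9 belongs to the Schlafen family of interferon-induced genes. Slfn9 had 38.9 and 41.2 TPM at ESC, 2.67 and 2.17 at the MES stage, 5.02 and 3.23 at CP, then 9.77 and 8.92 at CM. ESC was highest, and CM lay above all middle libraries. Slfn9 differed by 2.68 ± 0.16 (SE) on the log2 scale between ends and middle (adjusted p = 1.14e-06). Its weakest step was 0.81 without CP replicate 2 and 0.95 without CM replicate 1. Bst2 was measured at 77.7 and 75.98 TPM in ESC, at 32.2 and 36.2 in MES, at 35.96 and 41.9 in CP and at 190.0 and 132 in CM. Bst2, which tethers enveloped virus at the cell surface, was higher in CM than in ESC.

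The oligoadenylate synthetases, which activate RNase L, were regained as a cluster of neighbours on chromosome 5. In ESC Oas2 stood at 1.78 and 2.26 TPM, in MES at 0 and 0, in CP at 0.238 and 0.923, and in CM at 5.68 and 5.15. Oas2 had no count in MES, and counts were at least 31.2-fold higher in ESC and at least 72.3-fold higher in CM than a floor of 3 counts over both MES libraries. The libraries of Oas3 gave 1.99 and 2.24 TPM for ESC, 0.207 and 0.442 for MES, 0.2402 and 0.337 for CP, and 1.29 and 1.37 for CM. Oas3 lies 3245 bases from Oas2 and was low in the whole middle. Oas1g had 2.15 and 2.702 TPM at ESC, 0.627 and 0.178 at the MES stage, 0.726 and 1.02 at CP, then 4.93 and 3.94 at CM. Oas1g and Oas1c, further along the cluster, had the same shape. These near-identical paralogs may share reads, so they are not separate cases. Oas1g left the class without CP replicate 1 (largest adjusted p by edgeR 0.0658), and Oas1c left it under 7 of the 15 alternatives.

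Of 17 RNA sensors and oligoadenylate synthetases, a list drawn up after values were seen, 10 were called higher at the ends, 1 was called lower and 7 were regained, with a median of 1.76. Without CP replicate 1, 4 of them were regained. In this list 12 had CM above both middle stages and 7 had ESC above both. In the list of interferon response and MHC class I genes, 3 of 20 were called higher and 1 was regained. Over all genes tested these shares were 10.3% and 1.38%. In this second list 12 genes had CM above both middle stages and 1 had ESC above both. The difference between these lists was not tested.

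The promoters of Slfn9, Ddx58 and Oas1g are shown because each carries GAAA, any pair of bases and GAAA again, the core of the interferon-stimulated response element, a motif searched on both strands after the values were seen. They cover chr11:82991781-82992080, chr4:40239776-40240075 and chr5:120887564-120887863, all on the minus strand of GRCm38.p6 (RefSeq). Capitals mark the matches, and those of Oas1g are 2 that overlap.
Slfn9: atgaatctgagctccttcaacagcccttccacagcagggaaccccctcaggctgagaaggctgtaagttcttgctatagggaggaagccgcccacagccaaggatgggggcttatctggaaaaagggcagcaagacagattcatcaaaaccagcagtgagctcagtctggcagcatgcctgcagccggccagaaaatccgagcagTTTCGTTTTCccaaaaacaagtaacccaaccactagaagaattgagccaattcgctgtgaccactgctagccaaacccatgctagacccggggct
Ddx58: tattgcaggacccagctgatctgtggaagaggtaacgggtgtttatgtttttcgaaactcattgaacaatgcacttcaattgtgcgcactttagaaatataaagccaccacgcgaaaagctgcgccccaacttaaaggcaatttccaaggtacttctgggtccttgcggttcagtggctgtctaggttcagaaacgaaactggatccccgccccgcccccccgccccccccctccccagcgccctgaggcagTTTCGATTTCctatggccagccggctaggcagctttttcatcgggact
Oas1g: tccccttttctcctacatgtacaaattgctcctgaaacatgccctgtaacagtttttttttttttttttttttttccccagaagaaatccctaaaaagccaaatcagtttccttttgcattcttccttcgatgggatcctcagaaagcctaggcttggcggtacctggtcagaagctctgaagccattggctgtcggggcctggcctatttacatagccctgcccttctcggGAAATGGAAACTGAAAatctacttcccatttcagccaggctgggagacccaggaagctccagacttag
That element was found in 13 of the 200 regained genes with a promoter (6.5%), in 2 of 98 transient genes (2.04%), in 2.96% of tested genes and in 3.49% of all promoters. The 13 genes included Bst2, Ddx58, Oas1c, Oas1g, Oas3 and Slfn9, and also Spp1, Inhbb and Aoah. A match is a description of these letters and not a binding site.

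Genes known from macrophages were regained as well. Laptm5 encodes a lysosomal membrane protein of blood cells. Laptm5 was measured at 71.5 and 73.04 TPM in ESC, at 2.32 and 3.25 in MES, at 9.69 and 11.2 in CP and at 49.02 and 71.7 in CM. The end libraries lay far above all middle libraries. For Laptm5 the log2 difference of ends over middle was 3.67 ± 0.12 (SE, adjusted p = 4.64e-08). In ESC Nckap1l stood at 14.5 and 17.01 TPM, in MES at 2.68 and 2.11, in CP at 2.25 and 2.004, and in CM at 24 and 25.6. Nckap1l, the blood cell subunit of an actin-regulating complex, was low in the whole middle. The libraries of Cd68 gave 41.6 and 37.1 TPM for ESC, 12.5 and 14.3 for MES, 18.2 and 14.4 for CP, and 52.95 and 55.6 for CM. Cd68, a lysosomal glycoprotein, had the smallest relative loss of these.

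Folr2, Fcgr2b, Itgam and Trem2 completed the group. Fcgr2b had 1.74 and 2.09 TPM at ESC, 0.0362 and 0.03599 at the MES stage, 0 and 0.0374 at CP, then 5.17 and 3.65 at CM. This inhibitory Fc receptor had 2 counts in MES and 1 in CP. Trem2, a receptor of phagocytes, had 10 counts in ESC and 376 in CM and left the class under 11 of the 15 alternatives, among them DESeq2 and 6 of the 8 single libraries left out.

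Of 22 macrophage genes, a list drawn up after values were seen, 10 were called higher at the ends and 7 were regained, with a median of 1.94. All 22 had CM above both middle stages and 7 had ESC above both. Their summed level was 145.8 and 144.7 TPM at ESC, 26.1 and 27.6 at the MES stage, 73.4 and 94.2 at CP, then 1005 and 1039 at CM. The list members Adgre1, Lyz2, Tyrobp, C1qa, C1qb, C1qc, Cx3cr1, Aif1 and Fcgr3 were at 0 in both ESC libraries. Csf1r was measured at 0.0312 and 0.0322 TPM in ESC, at 0.181 and 0.541 in MES, at 4.26 and 4.83 in CP and at 76.5 and 70.2 in CM. Csf1r, a receptor of this lineage, was thus near 0 in ESC and abundant in CM. The 7 regained members, Folr2, Fcgr2b and Itgam among them, went the other way and had reads in ESC. Which cells gave the reads at either end was not tested. Of 22 lysosome and autophagy genes 2 were called higher (4 by DESeq2), against 10.3% of all genes tested.

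Placental genes were regained in part. Gjb5 encodes a connexin of epidermis and placenta. In ESC Gjb5 stood at 18.2 and 22.5 TPM, in MES at 4.38 and 5.21, in CP at 5.67 and 2.51, and in CM at 45.1 and 27.7. Both CM libraries exceeded both ESC libraries, a difference that was not called, and all middle libraries were lower. Gjb5 had a log2 difference of ends over middle of 2.69 ± 0.28 (SE, adjusted p = 4.57e-05). Of 7 gap junction genes 2 were called higher and 2 were called lower, and the list median was -0.54.

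Of 17 genes of trophoblast, a list drawn up after values were seen, 13 were tested. Of these, 8 were called higher at the ends, 3 were called lower and 5 were regained, among them Gjb5, Tfap2c, Gcm1 and Syna. The median was 1.96. The summed level of the list went otherwise, lowest at ESC and highest at MES. It was 133.7 and 134.6 TPM at ESC, 765.9 and 676.9 at the MES stage, 601.7 and 473.7 at CP, then 549.2 and 364.3 at CM. Grhl3, a factor of surface epithelia and trophoblast outside this list and named after its values were seen, had the same form. The libraries of Grhl3 gave 32.2 and 29.7 TPM for ESC, 6.84 and 5.75 for MES, 5.17 and 6.75 for CP, and 21.9 and 19.6 for CM. Every end library was above every middle library. In the list of 25 epithelial adhesion and tight junction genes the numbers were balanced. Of these, 5 were called higher and 6 lower, against 10.3% and 10.7% of all genes tested, and 1 was regained. That gene was Tjp3, a tight junction scaffold protein, which left the class under 6 of the 8 single libraries left out (weakest steps 0.7 to 1.17).

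Of the germline genes, 12 of 14 were called higher at the ends, with a median of 3.89 (3.81 at the bound), and 13 had ESC above both middle stages. Those in which CM rose as well were few, and 2 were in the class. Rhox5 is an X-linked homeobox gene. Rhox5 had 102 and 99.4 TPM at ESC, 4.17 and 2.21 at the MES stage, 21.4 and 12.3 at CP, then 159 and 50.05 at CM. Its CM replicates differed widely, yet both lay above CP. Rhox5 differed by 3.89 ± 0.43 (SE) on the log2 scale between ends and middle (adjusted p = 6.81e-05), and it left the class without CP replicate 2 (largest adjusted p by edgeR 0.0741). Asz1, a meiotic gene, left it under 10 of the 15 alternatives. Tex19.1, which restrains retrotransposons in germ cells and placenta, was not on the list. Tex19.1 was measured at 80.3 and 80.8 TPM in ESC, at 0.672 and 0.223 in MES, at 0.227 and 0.116 in CP and at 13.2 and 5.16 in CM. CM stayed far below ESC, and CP had 3 counts (adjusted p = 2.86e-06).

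The genes with the largest weakest steps belonged to no single list. In ESC Ccdc3 stood at 23.6 and 24.6 TPM, in MES at 0.235 and 0.234, in CP at 0.874 and 2.02, and in CM at 48.5 and 48.8. Ccdc3, a secreted protein of adipocytes and endothelium, was higher in CM than in ESC. For Ccdc3 the log2 difference of ends over middle was 5.92 ± 0.22 (SE, adjusted p = 9.21e-08). The libraries of Apobec1 gave 19.97 and 21.1 TPM for ESC, 0.233 and 0.5398 for MES, 1.65 and 2.16 for CP, and 32.1 and 48.8 for CM. Apobec1, a cytidine deaminase that edits RNA, was also higher in CM. Fgf1 had 3.095 and 3.81 TPM at ESC, 0.0384 and 0.191 at the MES stage, 0.427 and 0.277 at CP, then 8.07 and 7.69 at CM. Fgf1, a ligand of the fibroblast growth factor receptors, was low in every middle library. Fgf1 had a log2 difference of ends over middle of 4.73 ± 0.29 (SE, adjusted p = 1.57e-06).

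In others the return was partial. Inhbb was measured at 30.9 and 29.98 TPM in ESC, at 0.197 and 0.147 in MES, at 0.798 and 0.712 in CP and at 7.18 and 7.29 in CM. Inhbb, the beta B subunit of activins and inhibins, came back to a lower level. Inhbb differed by 5.41 ± 0.17 (SE) on the log2 scale between ends and middle (adjusted p = 3.48e-08). In ESC Abcb1a stood at 26.2 and 27.99 TPM, in MES at 0.306 and 0.418, in CP at 0.3098 and 0.395, and in CM at 4.95 and 5.66. Abcb1a encodes a drug efflux pump, and its neighbour Abcb1b, 49572 bases away, passed the same rule only just. For Abcb1a the log2 difference of ends over middle was 5.12 ± 0.15 (SE, adjusted p = 3.29e-08). The libraries of Liph gave 50.02 and 49.9 TPM for ESC, 0.428 and 0.71 for MES, 0.771 and 0.5896 for CP, and 13.3 and 5.82 for CM. Liph, a phospholipase, and Phf11d, a PHD finger protein, had the same low middle. Phf11d had 33.4 and 32.95 TPM at ESC, 0.1398 and 0.232 at the MES stage, 0.0472 and 0.288 at CP, then 7.74 and 2.197 at CM. Chchd10 was measured at 268 and 300.5 TPM in ESC, at 6.79 and 7.14 in MES, at 5.25 and 4.39 in CP and at 18.6 and 26.9 in CM. Chchd10, a mitochondrial protein of the intermembrane space, regained least among the abundant genes, with a log2 difference of CM over ESC of -4.09.

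Among the 10 regained lncRNAs Lncpint, a p53-responsive lncRNA at chr6:31082565-31220488, had the firmest values. In ESC Lncpint stood at 8.88 and 9.02 TPM, in MES at 1.16 and 1.69, in CP at 1.899 and 2.46, and in CM at 4.72 and 7.43. CM lay between the middle and ESC. Lncpint had a log2 difference of ends over middle of 2.12 ± 0.17 (SE, adjusted p = 8.05e-06). The libraries of Lncppara gave 1.34 and 1.39 TPM for ESC, 0 and 0.111 for MES, 0.113 and 0.115 for CP, and 7.12 and 2.64 for CM. Lncppara had 1 count in MES and 2 in CP, and CM exceeded ESC.

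**Figure D3:**
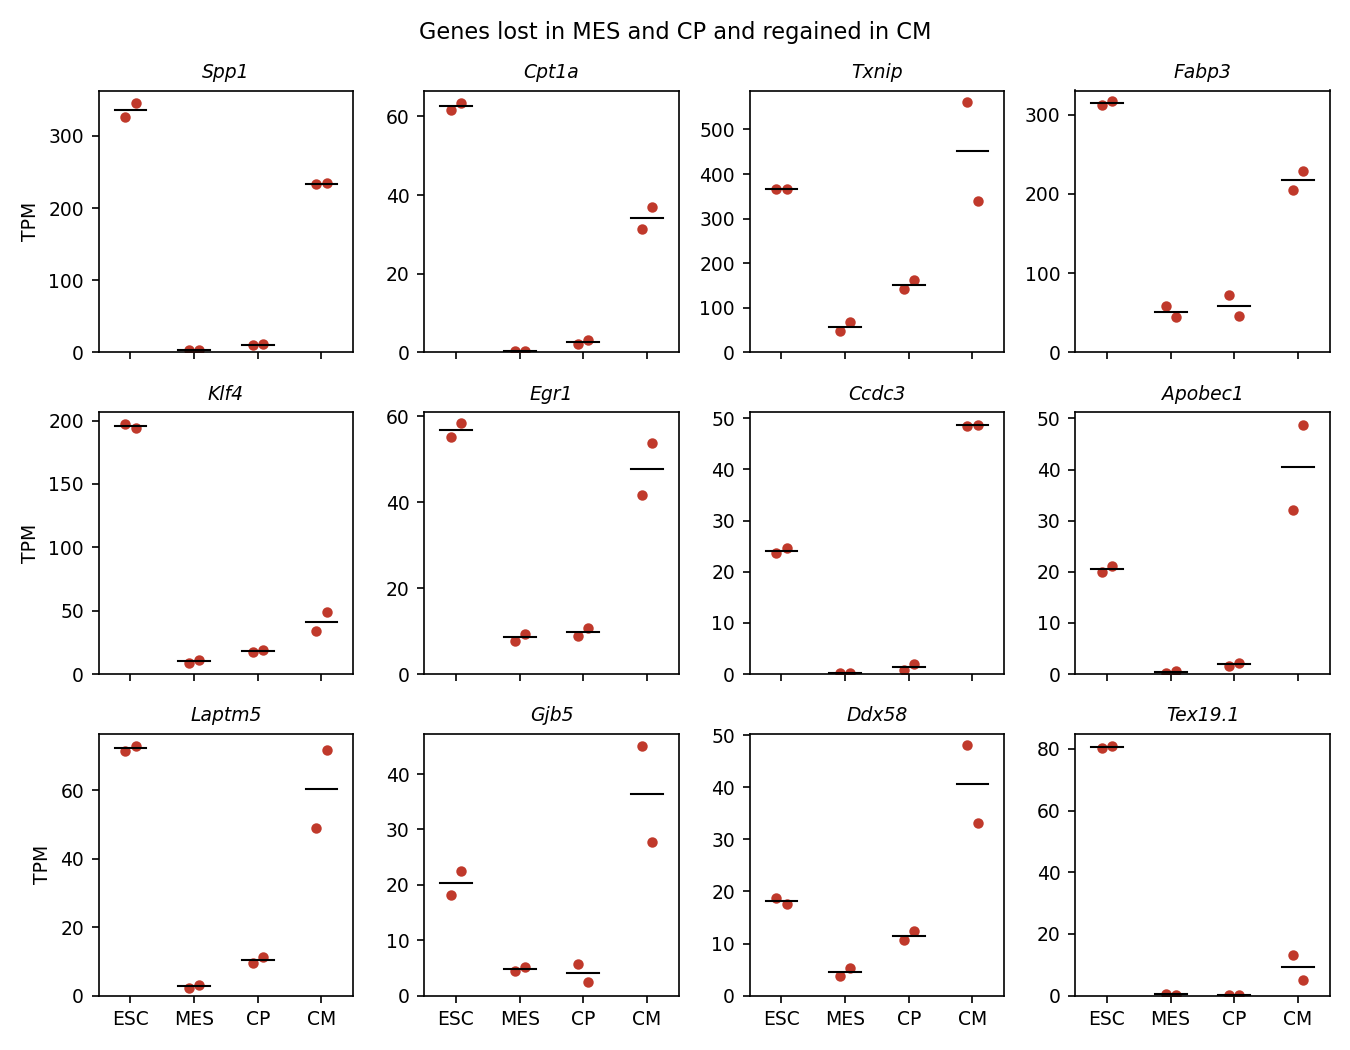
TPM of 12 regained genes, with a point per library and a line at the mean of each stage. In every panel both ESC points and both CM points lie above all MES and CP points, and CM is far below ESC for Klf4 and Tex19.1 and above ESC for Ccdc3, Gjb5 and Ddx58.

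The 159 transient genes were 131 mRNAs (0.858% of those tested), 14 lncRNAs (0.798%) and 14 genes of other kinds (0.46%). Their median TPM was 0.589 at ESC, 16.2 at the MES stage, 14.2 at CP and 3.69 at CM, and 72 of them averaged over 20 TPM in MES and CP. In CM 90 of the 159 (56.6%) were called higher than in ESC and 2 (1.26%) lower, against the same 29.8% and 21.8% of all genes tested, and the median log2 difference of CM over ESC was 1.64. Within the middle, 31 (19.5%) were called lower and 12 (7.55%) higher in CP than in MES, against 4.65% and 10.8% of all genes. In 13 of them an end stage had no count.

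Primitive erythroid genes gave the most complete list. Hbb-bh1 encodes an embryonic beta-like globin of primitive red cells. Hbb-bh1 had 0 and 0.303 TPM at ESC, 157 and 297 at the MES stage, 2768 and 2914 at CP, then 26.4 and 20.1 at CM. ESC had 1 count, CP was far above MES, and CM was far below both (adjusted p = 7.18e-08).

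The regulators came with it. Gata1 was measured at 0.295 and 0.763 TPM in ESC, at 16.2 and 21.7 in MES, at 18.6 and 17.7 in CP and at 2.24 and 2.12 in CM. Gata1 is the zinc finger factor that directs erythroid differentiation. Gata1 differed by -4.03 ± 0.23 (SE) on the log2 scale between ends and middle (adjusted p = 9.88e-07). In ESC Tal1 stood at 0.945 and 1.27 TPM, in MES at 50.96 and 52.05, in CP at 27.2 and 27.2, and in CM at 4.897 and 6.92. Tal1, which specifies blood from mesoderm, was highest in MES and still above ESC in CM. For Tal1 the log2 difference of ends over middle was -3.81 ± 0.12 (SE, adjusted p = 3.48e-08). The libraries of Klf1 gave 1.64 and 1.09 TPM for ESC, 9.56 and 14.9 for MES, 20.9 and 15.5 for CP, and 0.527 and 0.439 for CM. Klf1 activates the globin genes and was lower in CM than in ESC (log2 difference -1.89).

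Alas2 peaked in CP, later than Tal1. Alas2 had 0 and 0.155 TPM at ESC, 4.62 and 6.59 at the MES stage, 41.4 and 40.5 at CP, then 1.94 and 0.935 at CM. Alas2, the erythroid enzyme of heme synthesis, was several times higher in CP than in MES. Epor was measured at 1.63 and 1.03 TPM in ESC, at 16.8 and 15.6 in MES, at 14.5 and 14.1 in CP and at 6.204 and 4.29 in CM. Epor, the erythropoietin receptor, was level across MES and CP. Nfe2 and Gfi1b, a pair of erythroid transcription factors, were also in the class.

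Of 14 primitive erythroid and blood genes, 13 were called lower at the ends and 9 were transient, with a median of -4.31 (-4.16 at the bound). The summed level of the list was 6.59 and 6.72 TPM at ESC, 335 and 514 at the MES stage, 5068 and 5105 at CP, then 150.7 and 168.5 at CM. The count of 13 held under all 15 alternatives with the same thresholds, and 9 or 10 genes were transient.

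The promoter of Gata1 is shown because it holds CCACCC, the CACCC box that Kruppel-like factors bind. It covers chrX:7967861-7968160 on the minus strand of GRCm38.p6 (RefSeq), with the match, searched on both strands, in capitals.
Gata1: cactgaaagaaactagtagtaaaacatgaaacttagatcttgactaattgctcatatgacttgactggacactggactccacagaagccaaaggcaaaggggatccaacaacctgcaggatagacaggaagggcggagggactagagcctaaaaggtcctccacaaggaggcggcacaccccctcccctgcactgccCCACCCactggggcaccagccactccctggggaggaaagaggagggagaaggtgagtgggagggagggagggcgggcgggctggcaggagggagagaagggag
CCACCC occurred in 44.9% of the 98 transient genes with a promoter, 41.5% of the 200 regained genes, 37.6% of tested genes and 30.9% of all promoters, so it did not tell the classes apart. The metal response core TGCNCNC was found in 57.1% of transient, 70.0% of regained, 60.0% of tested and 50.4% of all promoters.

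Some genes of the primitive streak were transient. T had a log2 difference of ends over middle of -5.05 ± 0.48 (SE, adjusted p = 2.65e-05), but T left the class without CP replicate 1 (weakest step -1.64, largest adjusted p by edgeR 0.158) and with voom. In ESC Fgf3 stood at 0.696 and 0.639 TPM, in MES at 109 and 84.7, in CP at 7.85 and 6.23, and in CM at 0.174 and 1.93. Fgf3 is a fibroblast growth factor, and both ends were low. Fgf3 differed by -4.91 ± 0.35 (SE) on the log2 scale between ends and middle (adjusted p = 3.56e-06). The libraries of Fgf8 gave 0.533 and 1.38 TPM for ESC, 59.6 and 59.1 for MES, 12.4 and 14.9 for CP, and 2.997 and 4.33 for CM. Fgf8, which drives cells out of the streak, followed the same course. Evx1 had 0 and 0.0646 TPM at ESC, 50.2 and 41.9 at the MES stage, 10.2 and 8.19 at CP, then 2.53 and 2.03 at CM. Evx1, a homeobox factor of the posterior streak, had 1 count in ESC.

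Nkx1-2 and Cfc1 belong to the same stage. Nkx1-2 was measured at 0.441 and 1.02 TPM in ESC, at 46.4 and 31.6 in MES, at 10.6 and 11.5 in CP and at 0.248 and 1.93 in CM. Nkx1-2, a homeobox factor of the caudal epiblast, returned to the ESC level in CM. In ESC Cfc1 stood at 0.173 and 0 TPM, in MES at 57.2 and 93.2, in CP at 17.6 and 14.8, and in CM at 1.95 and 3.67. Cfc1, a coreceptor of Nodal, had 1 count in ESC, and it left the class with voom. Of 19 primitive streak and early mesoderm genes, 15 were called lower at the ends and 3 were transient, with a median of -3.85 (-3.05 at the bound). ESC was below both middle stages for 10 of them and CM for 6, and their summed level was 108 and 99.6 TPM at ESC, 1027 and 1074 at the MES stage, 389.9 and 369 at CP, then 239 and 260.4 at CM.

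Signalling genes, beginning with ligands, were also transient. The libraries of Bmp2 gave 0.253 and 0.262 TPM for ESC, 96.8 and 91.02 for MES, 80.4 and 73.1 for CP, and 11.5 and 21.1 for CM. Bmp2, a ligand that induces heart and blood mesoderm, stayed well above ESC in CM (log2 difference 5.49). For Bmp2 the log2 difference of ends over middle was -5.3 ± 0.19 (SE, adjusted p = 7.11e-08). Bmp5 had 0 and 0 TPM at ESC, 36.3 and 43.9 at the MES stage, 46.9 and 38.9 at CP, then 13.9 and 15.5 at CM. Bmp5 had no count in ESC, and counts were at least 539-fold higher in MES and 541-fold higher in CP than a floor of 3 counts over both ESC libraries. Bmp4 was measured at 45.9 and 45.99 TPM in ESC, at 249 and 219 in MES, at 214 and 226 in CP and at 114 and 111 in CM. Bmp4 was already present in ESC, and it left the class without CM replicate 2 (weakest step -0.92) and with library totals only (-0.96).

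In ESC Wnt5a stood at 0.851 and 1.21 TPM, in MES at 84.1 and 80.01, in CP at 67.96 and 70.8, and in CM at 16.8 and 37.8. Wnt5a is a ligand of the noncanonical Wnt pathway. The libraries of Fgf10 gave 1.92 and 1.33 TPM for ESC, 70.95 and 70.2 for MES, 56.7 and 58.7 for CP, and 21.5 and 15.4 for CM. Fgf10, a ligand of the second heart field, was level across MES and CP. Receptors included Aplnr, the apelin receptor of migrating mesoderm. Aplnr had 0 and 0 TPM at ESC, 116 and 117 at the MES stage, 71.8 and 85.1 at CP, then 7.99 and 13.4 at CM. Aplnr had no count in ESC, and counts were at least 1440-fold higher in MES and 907-fold higher in CP than the same floor (adjusted p = 5.86e-08). Fzd4 was measured at 4.44 and 5.42 TPM in ESC, at 85.2 and 70.5 in MES, at 78.3 and 71.9 in CP and at 25.8 and 33.5 in CM. Fzd4 is a Frizzled receptor of the Wnt pathway.

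Secreted inhibitors among the transient genes included Dkk1, Frzb and Nog. In ESC Dkk1 stood at 0.667 and 0.919 TPM, in MES at 62.3 and 63.96, in CP at 35.1 and 27, and in CM at 13 and 13.5. Dkk1 blocks the Wnt coreceptors. The libraries of Frzb gave 0.222 and 0.0574 TPM for ESC, 28.9 and 49.8 for MES, 33.96 and 38.4 for CP, and 14.8 and 16.8 for CM. Frzb binds Wnt ligands outside the cell. Nog had 1.804 and 1.097 TPM at ESC, 20.5 and 14.6 at the MES stage, 25.2 and 21.4 at CP, then 6.68 and 9.81 at CM. Nog binds BMP ligands. Wnt5a, Fzd4, Frzb and Nog were named after their values were seen.

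Target genes of BMP signalling closed the group. Msx1 was measured at 0.523 and 0.6604 TPM in ESC, at 152 and 145 in MES, at 73.3 and 55.6 in CP and at 11.6 and 11.8 in CM. Msx1, a homeobox factor, was highest in MES. Msx1 had a log2 difference of ends over middle of -5.14 ± 0.14 (SE, adjusted p = 2.56e-08). In ESC Id3 stood at 15.97 and 18.9 TPM, in MES at 339.7 and 309, in CP at 182 and 194, and in CM at 65.8 and 116. Id3, an inhibitor of helix-loop-helix factors, left the class without CM replicate 1 (weakest step -0.86). Of 18 Wnt, Nodal and BMP targets and feedback genes, 12 were called lower at the ends, 2 were called higher and 3 were transient, with a median of -1.38, and the counts of 12 and 2 were equal under all 15 alternatives with the same thresholds.

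Factors of heart and vessel development were mostly lost in part. The libraries of Hand1 gave 0.4504 and 1.77 TPM for ESC, 612 and 544 for MES, 521 and 410.3 for CP, and 217 and 143 for CM. Hand1, a helix-loop-helix factor of heart and extraembryonic mesoderm, kept a high level in CM. Hand1 differed by -5.12 ± 0.25 (SE) on the log2 scale between ends and middle (adjusted p = 4.40e-07). Hey2 had 0.901 and 0.445 TPM at ESC, 15.8 and 16.6 at the MES stage, 16.03 and 16.1 at CP, then 4.67 and 7.58 at CM. Hey2 is a Notch target of the ventricle. Etv2 was measured at 1.54 and 1.42 TPM in ESC, at 45.4 and 35.6 in MES, at 11.1 and 6.604 in CP and at 0.965 and 0.857 in CM. Etv2, which commits mesoderm to blood and endothelium, ended below ESC in CM, a difference that was not called.

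Of 20 cardiac progenitor regulators, 17 were called lower at the ends and 3 were transient (Hand1, Fgf10 and Hey2; 5 without CM replicate 2), with a median of -2.79. ESC was below both middle stages for 18 of them and CM for 3, so the calls came mainly from ESC. Of 26 sarcomere and calcium handling genes, 11 were called lower, 2 were called higher, and ESC was below both middle stages for 12. In ESC Ttn stood at 16.5 and 16.6 TPM, in MES at 0.389 and 0.696, in CP at 55.7 and 74.8, and in CM at 19.3 and 41.6. Ttn, the giant spring of the sarcomere, had reads in ESC and a minimum in MES. Of 15 endothelial genes 11 were called lower, 1 was called higher and 2 were transient, Etv2 and Egfl7.

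The abundant transient genes also included a transporter and proteins of the cell surface and cytoskeleton. The libraries of Slc2a1 gave 504 and 526 TPM for ESC, 2392 and 2554 for MES, 2570 and 2237 for CP, and 1156 and 809.9 for CM. Slc2a1, the glucose transporter GLUT1, was higher in all 4 middle libraries than in any end library. For Slc2a1 the log2 difference of ends over middle was -1.699 ± 0.13 (SE, adjusted p = 7.40e-06). Podxl had 14.3 and 13.7 TPM at ESC, 643 and 597 at the MES stage, 583 and 586 at CP, then 246 and 207 at CM. Podxl encodes podocalyxin, a sialomucin of the cell surface, and CM was above ESC. Podxl had a log2 difference of ends over middle of -3.34 ± 0.10 (SE, adjusted p = 3.48e-08). Cd24a was measured at 41.2 and 41.5 TPM in ESC, at 672 and 757 in MES, at 684 and 606 in CP and at 205 and 324 in CM. Cd24a is a glycoprotein anchored in the membrane.

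In ESC Prtg stood at 72.5 and 85.1 TPM, in MES at 494 and 492, in CP at 250.1 and 239, and in CM at 61.5 and 68.9. Prtg, an adhesion protein of the early embryo, was as low in CM as in ESC. The libraries of Tuba1a gave 331 and 359 TPM for ESC, 939.8 and 963 for MES, 1141 and 997 for CP, and 425 and 422 for CM. Tuba1a is an alpha tubulin. In the list of 25 glycolysis and hypoxia genes 3 were called lower and 2 higher, against 10.7% and 10.3% of all genes tested. Slc2a1 was the transient member of the list. At an unadjusted p under 0.05, 11 were lower and 6 higher, and the summed level of the list was lower in each of the 4 end libraries (8553 to 12310 TPM) than in each of the 4 middle libraries (12840 to 17000 TPM).

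The summed level of cholesterol synthesis genes was lower in each end library (1195 to 1953 TPM) than in each middle library (2459 to 3459 TPM). Of 20 genes, 8 were called lower at the ends, against 10.7% of all genes tested, and the median was -0.94. At an unadjusted p under 0.05 by edgeR, 20 were lower, a count with no share of all genes beside it. CM was below both middle stages for 13 of the 20 and ESC for 3, so the low level at CM was called more often. Without CM replicate 2, 5 were called. Hmgcs1 had 287 and 293 TPM at ESC, 657 and 642 at the MES stage, 482 and 406 at CP, then 202 and 182 at CM. Hmgcs1, the synthase that starts the pathway, was lowest in CM. Fdps was measured at 5.09 and 5.79 TPM in ESC, at 19.3 and 18.7 in MES, at 13.5 and 14.8 in CP and at 7.02 and 6.14 in CM. Fdps, which makes farnesyl diphosphate, was the sole transient member. Fdps differed by -1.38 ± 0.12 (SE) on the log2 scale between ends and middle (adjusted p = 1.64e-05), and its weakest step lay between -0.95 and -1 under 6 of the 15 alternatives, which took it out of the class.

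Some transient lncRNAs lay beside transient genes. In ESC Haglr stood at 0.119 and 0.123 TPM, in MES at 6.73 and 6.21, in CP at 1.97 and 1.22, and in CM at 0.134 and 0.0743. Haglr lies 84 bases from Hoxd1 on chromosome 2 and on the opposite strand. The libraries of Hoxd1 gave 0.0966 and 0.0999 TPM for ESC, 13.2 and 13.1 for MES, 0.912 and 1.98 for CP, and 0 and 0 for CM. Hoxd1 had no count in CM, and counts were at least 81.6-fold higher in MES and 8.37-fold higher in CP than a floor of 3 counts over both CM libraries. Gm14204 had 0 and 0.0251 TPM at ESC, 3.397 and 3.21 at the MES stage, 0.287 and 0.497 at CP, then 0 and 0 at CM. Gm14204 lies 44 bases from Slc32a1, which encodes the vesicular GABA transporter and had 12.3 and 14.8 TPM in MES. Gm45889, at chr7:142283210-142290418, is a transient lncRNA with no transient gene within 100000 bases. Gm45889 was measured at 0 and 0.0546 TPM in ESC, at 46.97 and 46.7 in MES, at 16.1 and 16.1 in CP and at 3.32 and 6.92 in CM. It had 1 count in ESC.

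**Figure D4:**
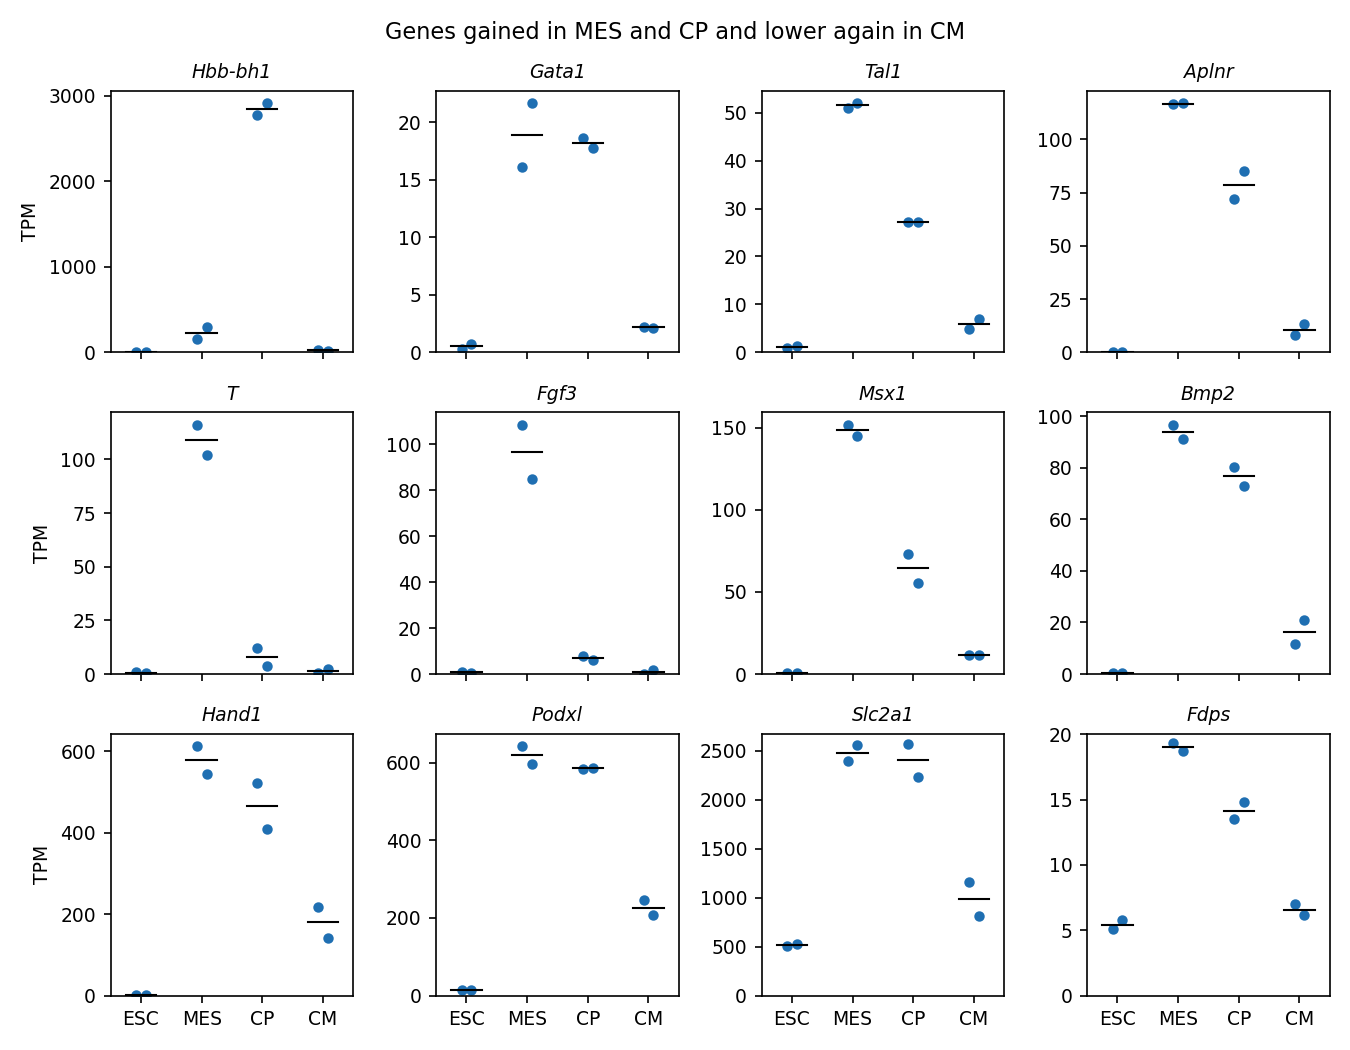
TPM of 12 transient genes, with a point per library and a line at the mean of each stage. In every panel the ESC and CM points lie below all MES and CP points, and Hand1, Podxl and Slc2a1 keep a clear level in CM while T and Fgf3 fall to that of ESC.

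Other lists held few members of either class. DNA methylation and Tet enzymes had 4 of 9 called higher at the ends. In ESC Dnmt3a stood at 89.97 and 98.3 TPM, in MES at 25.1 and 30.1, in CP at 43.2 and 53.2, and in CM at 93.3 and 85.1. Dnmt3a, a de novo DNA methyltransferase, matched ESC in CM. For Dnmt3a the log2 difference of ends over middle was 1.404 ± 0.09 (SE, adjusted p = 2.17e-06). The libraries of Tet2 gave 71.9 and 76.7 TPM for ESC, 8.27 and 9.93 for MES, 25.5 and 25.5 for CP, and 35.4 and 33.6 for CM. Tet2 oxidizes methylcytosine. Metallothionein and antioxidant genes had 7 of 16 called higher. Hmox1 had 233 and 270.5 TPM at ESC, 72.6 and 68.4 at the MES stage, 86.8 and 95.5 at CP, then 201 and 173 at CM. Hmox1, heme oxygenase, was among them. Hmox1 had a log2 difference of ends over middle of 1.51 ± 0.10 (SE, adjusted p = 1.94e-06). Of 14 Kruppel-like factors 5 were called higher and Klf4 alone was regained, and it was not regained without CM replicate 2. Of 14 Hox genes 10 were called lower, 1 was called higher and Hoxd1 was transient.

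Lists of general cell growth and of p53 targets had no calls. A steady fall over the 4 stages largely cancels in this comparison, so 0 calls do not mean a constant level. The summed level of DNA replication genes fell from 4607 and 4545 TPM at ESC to 1550 and 1663 at CM. Ribosome biogenesis genes fell from 6205 and 6202 to 1954 and 2077 TPM, and mitosis genes from 4047 and 4066 to 1778 and 1758. For DNA replication edgeR called 0 of 22 genes, with 3 higher and 2 lower at an unadjusted p under 0.05. For mitosis it called 0 of 20, with 4 higher and 8 lower, and for ribosome biogenesis 0 of 20, with 5 higher. For p53 targets it called 0 of 15, with 9 higher. The summed level of p53 targets differed between the CM replicates, at 1573 and 3460 TPM, and the lack of calls did not hold without CM replicate 1. DESeq2 called 0 in each of these 4 lists. The counts at an unadjusted p were not set against the share of all genes that pass it, so they show no leaning of a list. Their medians were 0.03 for DNA replication, -0.09 for mitosis, 0.08 for ribosome biogenesis and 0.44 for p53 targets.

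**Figure D5:**
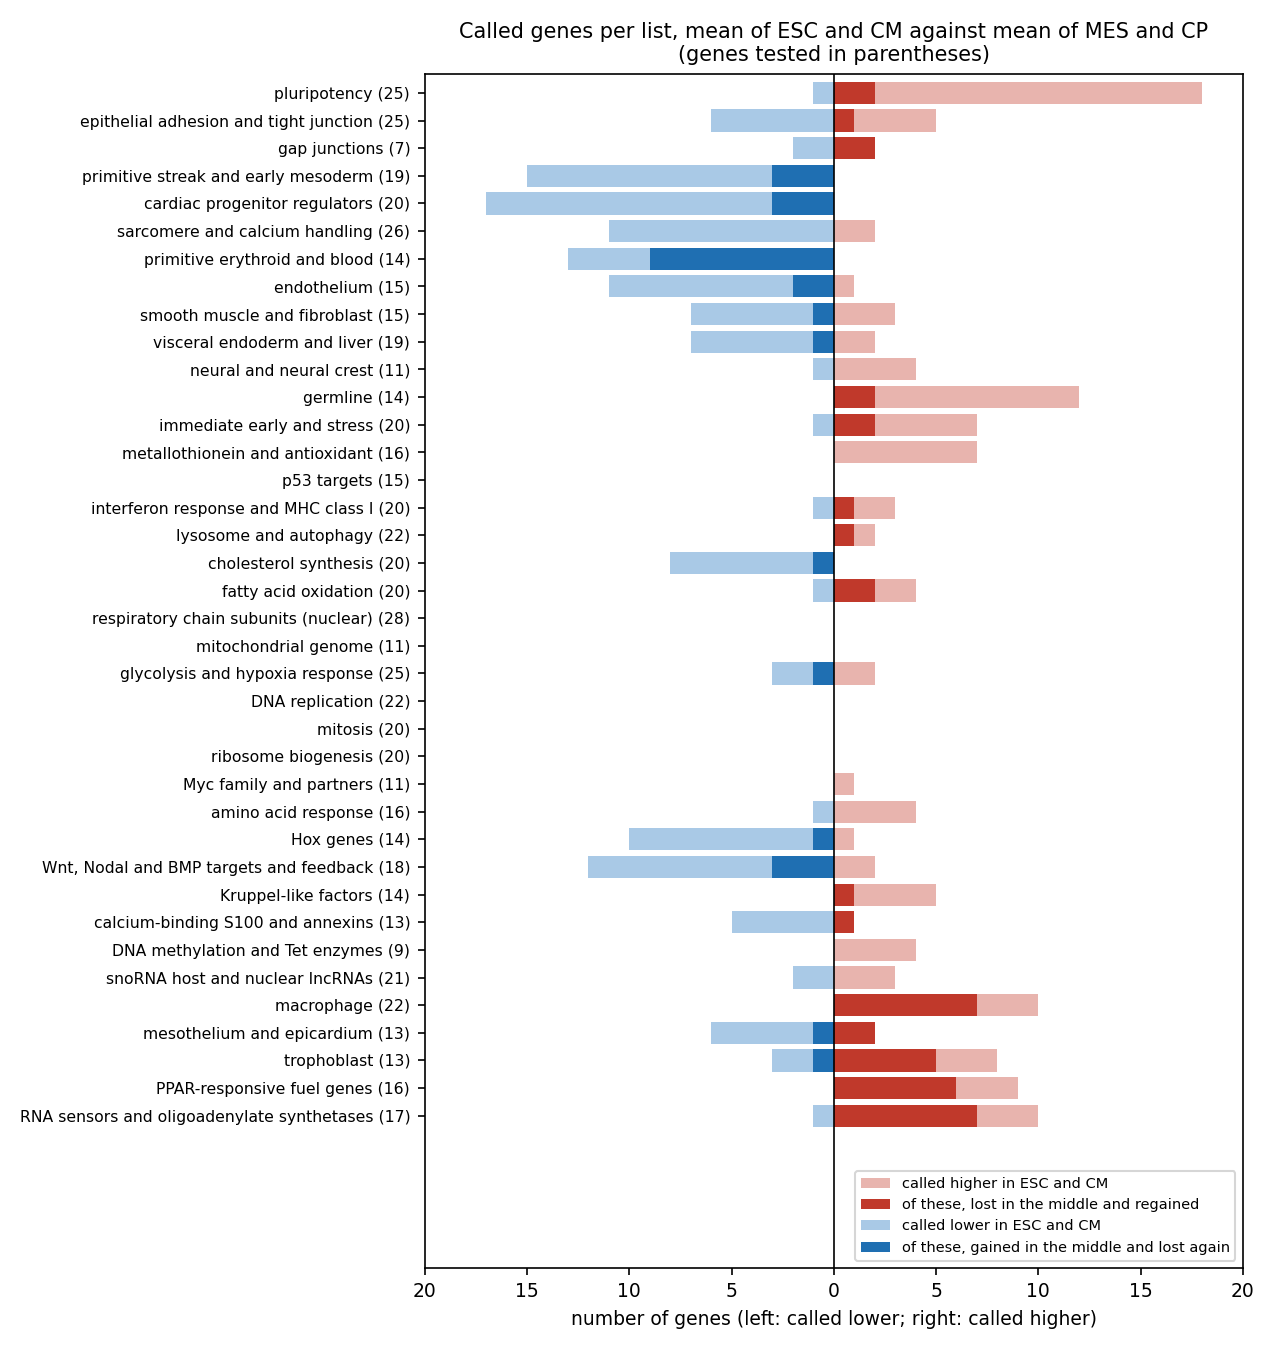
Number of genes called lower (left) and higher (right) in ESC and CM against MES and CP for 38 lists, with the genes tested in parentheses and members of the regained or transient class in dark colour. Pluripotency genes reach 18 calls on the right with 2 regained, and primitive erythroid genes reach 13 on the left with 9 transient, and the last 5 lists were drawn up after values were seen.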

How the data were processed

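RNA from J1 ESC, MES, CP and CM was sequenced in 8 libraries. Per the labels, the authors trimmed reads with Trim Galore 0.6.6, aligned them to GRCm38 with HISAT2 2.2.1, counted them with featureCounts 2.0.1 and used DESeq2 1.34.0 for their own comparisons. The authors deposited whole-number counts per gene and a TPM table, in which counts are divided by gene length and by the library's sum. TPM recomputed from the counts lay within 4.3e-06 of it. Since 114 symbols are not unique, identifiers were used to join counts, TPM and coordinates. Lists and promoters were joined by symbol, and a list symbol took its entry with the most counts.

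Counts were fitted with edgeR 4.0.16 (R 4.3.3) with TMM scaling, its filter on low counts and a term per stage, over all 8 libraries. Quasi-likelihood p-values of 20071 genes received a Benjamini-Hochberg adjustment. All stages share a spread per gene, so p-values that involve CM, whose replicates differed most, may be too small. The SE is the size of the log2 difference divided by the square root of F. Log2 differences follow TMM and can differ from ratios of TPM. P-values measure the spread between 2 replicates per stage. Where a stage had no count, the floor was 3 counts in its pair of libraries, which covers counting error only. Genes with 1 to 3 counts in a stage have no fold.

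Named genes were, per class, the 12 mRNAs and 5 lncRNAs with the largest weakest step (average log2 CPM of at least 2, no overlap), 2 to 4 members per list, the 5 most abundant genes, up to 10 transcription factors and the stage markers, and from these a part was described, and some are not reported here. Members and lists were chosen with earlier results of these data known, and 5 of the 38 lists after values were seen. Counts and medians of those 5 lists follow in part from that choice. List counts are over the members tested. Promoters are of RefSeq (GRCm38.p6). Alternatives used DESeq2 1.42.0, limma 3.58.1 with voom, other scalings and filters, a replicate block, other thresholds and each library left out. The fit was tested on simulated data. Python 3.11.15, pandas 2.3.3, numpy 2.4.6 and matplotlib 3.10.9 were also used.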

Additional observations from a re-analysis of the deposited data

How the results depend on the processing

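The number of genes called higher and lower in ESC and CM, and of regained and transient genes, kept within 1.5 times of its value with DESeq2, voom, RLE scaling, library totals only, no filter on low counts and a filter of at least 10 counts in 4 libraries. In all 15 alternatives with the same thresholds, 123 of the 277 regained and 71 of the 159 transient genes kept their class, and no named gene reversed. With each library left out in turn, 1781 to 1995 genes were called higher, 1914 to 2308 lower, 174 to 325 were regained and 110 to 229 were transient. The lowest count of regained genes came without CP replicate 1 (174) and the next without CP replicate 2 (183). With a fold above 1.5, 3301 genes were called lower and 292 were transient. With no fold threshold 4414 were called higher, 5279 lower, 502 were regained and 563 were transient. With the ends and the middle fitted as 2 groups of 4 libraries, 68 were called higher and 28 lower, since the difference between ESC and CM then counts as spread. Same-numbered replicates did not deviate together (correlations 0.011 to 0.075), and with the replicate block 1995 genes were called higher, 2129 lower, 277 were regained and 161 transient. Scaling by library totals only moved the median log2 difference of CM over ESC over all genes to 0.33, against 0.11 with TMM. With 2 replicates per stage and few counts in the middle stages, a low gene can join or leave a class by chance.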
